A study of Homo sapiens with 6 samples.

Results

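Transcripts of the interleukin-6 signal path were followed in 3 human multiple myeloma lines through 10 genes: the cytokine IL6, the receptor chains IL6R and IL6ST, the kinases JAK1, JAK2 and TYK2, the transcription factor STAT3, its feedback inhibitor SOCS3, and the kinases PIM1 and PIM2. All probe sets annotated to one of these genes and to no other were taken, 30 of the 54675 on the Affymetrix Human Genome U133 Plus 2.0 array. Probe sets were taken by gene name, whatever their level. The study sorted each line with an antibody against the surface glycoprotein CD24, and compared CD24+ cells of OPM2, ARP1 and OCI-MY5, described by the submitters as a cancer stem cell population, with CD24− cells of the same 3 lines. Each line gave 1 array per fraction, so there were 3 arrays per fraction and 2 per line. All cells were established myeloma lines grown in RPMI-1640 with serum and antibiotics, and the labels name no treatment and no added cytokine. No label says that the arrays came from separate cultures, so p-values measure the spread between these arrays, which may in part be technical. In the comparison of lines, the 2 arrays of a line are its CD24+ and its CD24− cells. Their spread therefore holds the fraction difference too, and no line has a replicate array of the same fraction.

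IL6 binds its own receptor chain, IL6R, and the complex then engages IL6ST (gp130), a signalling chain shared by a family of cytokines. The kinases JAK1, JAK2 and TYK2, held on the gp130 tail, phosphorylate STAT3, which enters the nucleus and switches on genes that include SOCS3, which shuts the receptor down, and PIM1. In myeloma, IL6 from bone marrow stroma is a classical growth and survival factor, and PIM2 is known as a kinase that malignant plasma cells rely on.

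Values are MAS5 intensities on a linear scale, and differences were taken after adding 16 and converting to log2, so that changes of dim transcripts come out too small. An intensity of one probe set is no measure of its level against that of another, so differences were tested only between arrays. Words such as dim, sums over a list and the TrpnX range do set probe sets side by side, and are rough guides. Of the 30 probe sets 22 had a mean log2 value at or above the median of all probe sets (6.36) and were tested among 27281 probe sets with limma, with p-values adjusted by Benjamini-Hochberg over all of them and called below 0.05. Every gene had at least 1 tested probe set. A probe set that is bright in a single line can pass this filter through that line alone, and counts over the 22 are therefore descriptions. As a measure of background, control probe sets for the bacterial transcript TrpnX ran from 2.23 to 96.4 intensity units. Of the tested probe sets 14 lay above that range on every array and 8 fell within it on at least 1.

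The arrays carried the markers of plasma cells, with SDC1 at 2595 to 17529 and PRDM1 at 13343 to 16586 intensity units. CD24 itself gave no check of the sort, since its 6 probe sets ranged from 1.69 to 140 and none was bright enough to test. A list of 28 markers of myeloid, T and NK, stromal, red cell and platelet lineages had 24 genes with a probe set. Of these 9 were within the TrpnX range on every array, among them CD14, CD3D, CD3G, NKG7 and S100A8. The rest rose above it on at least 1 array. COL1A1 was at 181 to 369, and ITGAM, MPO and CD8A reached 296, 264 and 183 on the CD24+ array of OPM2. GNLY was at 5215 and 6859 in ARP1 and HBB at 2298 and 1792 in OPM2 (CD24+ first), and in the other lines GNLY reached 119 and HBB 225 at most. Summed over the list, the T and NK markers were at 5511 and 7101 in ARP1 and at 126 to 699 in the other lines. The red cell and platelet markers summed to 2311 and 1888 in OPM2 and to 154 to 306 elsewhere. In ARP1 the first sum is mostly GNLY, and in OPM2 the second is mostly HBB. The other T and NK markers were at 6.25 to 105 in ARP1, and PF4 and PPBP at 2.75 to 93.2 in OPM2. The myeloid list summed to 207 to 876 in CD24+ cells and 243 to 391 in CD24− cells, and the stromal list to 388 to 670 and 498 to 712. Their part in the results was not tested. The CD24+ array of OPM2 stood apart: its bacterial spike-ins had a geometric mean of 29795 against 4853 to 5846 on the other arrays, its median intensity was 135 against 69.0 to 84.2, and its ACTB 3′ over 5′ signal ratio was 27.1. That ratio also differed with line and array: it was 7.54 in the CD24− cells of OPM2, 2.63 and 2.47 in ARP1 (CD24+, then CD24−), and 9.36 and 23.2 for OCI-MY5. Its part in the line differences was not tested.

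The promoters of the member with the widest difference between lines, IL6R, and of PIM1, the member with the lowest adjusted p among those lower in OPM2, are shown because the values below turn on these genes. Each is the 250 bases before the gene's start in RefSeq on GRCh38.p14, read 5′ to 3′ on the gene's strand, with the GC box GGGCGG, on either strand, in capitals. IL6R lies on the plus strand at chr1:154405093-154405342 and PIM1 on the plus strand at chr6:37169902-37170151.
IL6R: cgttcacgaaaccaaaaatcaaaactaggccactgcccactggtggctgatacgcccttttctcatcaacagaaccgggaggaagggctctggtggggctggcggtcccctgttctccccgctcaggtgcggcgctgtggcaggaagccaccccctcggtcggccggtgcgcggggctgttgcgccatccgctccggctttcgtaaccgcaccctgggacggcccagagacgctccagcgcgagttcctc
PIM1: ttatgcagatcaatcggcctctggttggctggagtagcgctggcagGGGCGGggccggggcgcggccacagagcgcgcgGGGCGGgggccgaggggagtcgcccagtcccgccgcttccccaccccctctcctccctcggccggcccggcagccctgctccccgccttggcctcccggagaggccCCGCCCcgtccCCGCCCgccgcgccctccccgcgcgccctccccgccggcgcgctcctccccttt
PIM1 held 4 GC boxes and 79.6% G and C, and IL6R held none and 65.2%. Over 35116 promoters of the same length 42.6% held a GC box. The palindrome TTCNNNGAA, to which STAT proteins bind, was searched on both strands and was in none of the 16 promoters listed for the 10 genes, and in 6.57% of all promoters; no match says only that these letters are not in this window.

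The ligand and its receptor chains come first. IL6, the cytokine, was near background: its single probe set, 205207_at, had intensities of 73.5 and 102 in OPM2 (CD24+, then CD24−), 87.4 and 7.35 in ARP1, and 255 and 112 for OCI-MY5. Both OCI-MY5 arrays were above those of the other lines, and 3 of the 6 arrays fell within the TrpnX range. The lines did not differ past the threshold (moderated F, adjusted p = 0.243), and the interval of ARP1 minus OCI-MY5 ran from −3.88 to 0.03 around a difference of −1.92.

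IL6R, the chain that gives IL6 its specificity, differed more between the lines than any other member. On its brightest probe set, 226333_at, the CD24+ and CD24− cells had 15649 and 14389 intensity units in OPM2, 2556 and 3213 in ARP1 and 391 and 455 for OCI-MY5. The 3 lines did not overlap, and both fractions stood in the same order. OPM2 was 34.3-fold higher than OCI-MY5 (log2 difference 5.10, 95% interval 4.52 to 5.69; limma, adjusted p = 0.000948) and 5.21-fold higher than ARP1 (2.38, 1.80 to 2.97; adjusted p = 0.00522). ARP1 was 6.59-fold higher than OCI-MY5 (2.72, 2.13 to 3.31; adjusted p = 0.0448). In bulk RNA such as this, fewer cells with a transcript and less of it per cell cannot be told apart.

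The other probe sets of IL6R put the lines in the same order. Probe set 205945_at had 9518 and 12508 in OPM2, 3070 and 2420 in ARP1 and 248 and 477 for OCI-MY5, CD24+ first. Probe set 217489_s_at, dimmer by far, had 496 and 522 in OPM2, 102 and 69.4 in ARP1 and 3.30 and 6.43 for OCI-MY5, whose arrays were within the TrpnX range. It passed the filter through OPM2, so its values are given as a description only. On 205945_at OPM2 was higher than OCI-MY5 by 4.92 (adjusted p = 0.0028) and than ARP1 by 1.99 (adjusted p = 0.028), and ARP1 minus OCI-MY5 missed the threshold at 2.92 (adjusted p = 0.0629). The range of line means was 5.10 on 226333_at and 4.92 on 205945_at, at the 99.1th and 99.0th percentile of all tested probe sets.

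The call of OPM2 over OCI-MY5 held in 17 of 17 alternatives on 226333_at (4.71 to 5.21) and in 15 of 15 on 205945_at (4.47 to 5.37). That of OPM2 over ARP1 on 226333_at was lost without the CD24+ array of ARP1 (2.22, adjusted p = 0.059). On 205945_at it was called in 11 of 15 alternatives and lost with centring, with no filter and without either ARP1 array (adjusted p up to 0.159). The call of ARP1 over OCI-MY5 on 226333_at held in 8 of 17. Without the CD24+ array of OPM2, which stood apart, the OPM2 differences on this probe set were 5.04 over OCI-MY5 and 2.32 over ARP1 (adjusted p = 0.00313 and 0.0118).

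**Figure D1:**
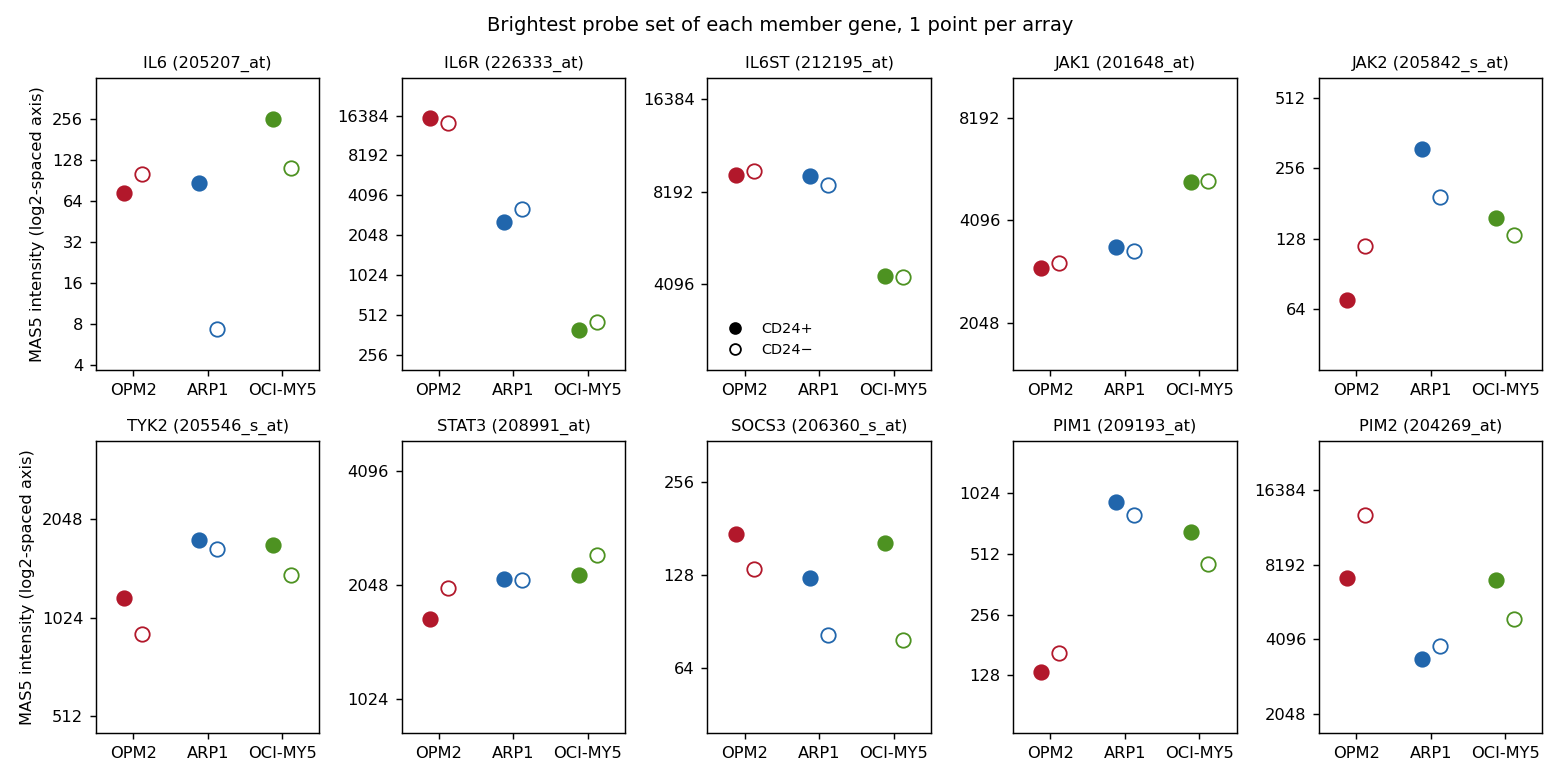
MAS5 intensity (vertical axis, spaced by log2) of the brightest probe set of each of the 10 genes in OPM2, ARP1 and OCI-MY5 (horizontal axis). Each point is 1 array, filled for CD24+ and open for CD24− cells. IL6R falls in steps between 15649 and 391, PIM1 is at most 165 in OPM2 and at least 459 in the other lines, and the STAT3 arrays all lie between 1662 and 2460.

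IL6ST, which encodes the gp130 signalling chain, was lowest in OCI-MY5, by a smaller margin. On 212195_at it was at 9280 (CD24+) and 9540 (CD24−) in OPM2, at 9178 and 8623 in ARP1, and at 4366 and 4313 in OCI-MY5. OPM2 and ARP1 differed by 0.08 (95% interval −0.42 to 0.58), and both OCI-MY5 arrays were below the other 4. OPM2 was higher than OCI-MY5 by 1.11 ± 0.20 (log2, SE; 2.16-fold, adjusted p = 0.0236), and ARP1 was higher than OCI-MY5 by 1.03, which missed the threshold (adjusted p = 0.101). The call was lost with each array centred on its median, with no filter on dim probe sets, without any single array of ARP1 or OCI-MY5, and with the mean of all 7 probe sets of the gene (0.43, adjusted p = 0.26).

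All 5 tested probe sets of IL6ST had their lowest line mean in OCI-MY5, with both of its arrays below the other 4. Probe set 212196_at had 963 and 1382 in OPM2, 1318 and 1562 in ARP1 and 630 and 581 for OCI-MY5. Probe set 204863_s_at had 828 and 1327 in OPM2, 672 and 668 in ARP1, and 505 and 599 for OCI-MY5. For 211000_s_at the OPM2 arrays gave 742 and 1116, those of ARP1 746 and 565, and those of OCI-MY5 492 and 552. None of these was called (moderated F, adjusted p = 0.0612, 0.15 and 0.211), nor was the dim 204864_s_at at 48.9 to 147 (0.281). The remaining probe sets, 234967_at and 234474_x_at, were at 4.89 to 73.3, within the TrpnX range on every array.

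The kinases held by gp130 come next. JAK1, needed for signalling by gp130, was measured best by 201648_at, at 2977 and 3079 in OPM2, 3417 and 3320 in ARP1 and 5302 and 5335 for OCI-MY5, CD24+ first. Both OCI-MY5 arrays were above the other 4. OPM2 was below OCI-MY5 by a log2 difference of −0.81 ± 0.20 (SE), just short of the threshold (limma, adjusted p = 0.0512). The same contrast passed with 1 probe set per gene (limma, adjusted p = 0.0226), and was called in 6 of 17 alternatives. Over the alternatives the difference ran from −1.20 to −0.04 (adjusted p up to 0.940). The probe sets of JAK1 disagreed. Probe set 1552611_a_at was also highest in OCI-MY5, at 1504 and 2480 against 994 and 1418 in OPM2 and 1192 and 984 in ARP1. By contrast 1552610_a_at was highest in ARP1, at 544 and 980, with 193 and 370 in OCI-MY5 and 79.4 and 174 in OPM2, where the CD24+ array was within the TrpnX range. OPM2 minus ARP1 was −2.47 on it (95% interval −3.79 to −1.16; adjusted p = 0.0369), a call made in 6 of 14 alternatives. It was lost with a pseudocount of 1, with quantile normalization, with no filter and without any single array other than the CD24− array of OPM2 (adjusted p up to 0.183). With this disagreement no order of the lines holds for JAK1 as a gene.

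JAK2 was dim. On 205842_s_at it had 69.9 and 119 in OPM2, 311 and 193 in ARP1 and 157 and 132 for OCI-MY5. Both OPM2 arrays were below and both ARP1 arrays above all others, and OPM2 minus ARP1 was −1.28 (95% interval −2.17 to −0.40), which missed the threshold after adjustment (adjusted p = 0.0663) and passed it in 2 of 16 alternatives, among them 1 probe set per gene (adjusted p down to 0.0342). Probe set 205841_at had the same order of line means, with 5.99 and 92.6 in OPM2, 186 and 154 in ARP1 and 128 and 89.8 for OCI-MY5 (moderated F, adjusted p = 0.22). TYK2, the third kinase of the receptor, had 1173 and 910 in OPM2, 1774 and 1660 in ARP1 and 1706 and 1386 for OCI-MY5, with both OPM2 arrays lowest (OPM2 minus ARP1 −0.72 ± 0.24, SE; adjusted p = 0.106).

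STAT3, the transcription factor at the end of the path, differed little between the lines. On 208991_at it had 1662 and 2009 in OPM2, 2123 and 2114 in ARP1 and 2176 and 2460 for OCI-MY5, and its line means spanned 0.34. Probe sets 208992_s_at and 225289_at spanned 0.41 and 0.47, and these 3 stood at the 11.9th to 20.8th percentile of all tested probe sets. The fourth tested probe set, 243213_at, was at 64.7 to 101 and within the TrpnX range on 5 of 6 arrays, so its small span is no measure of STAT3. The 3 brighter ones did not agree on an order, since 208991_at was lowest in OPM2 and the other two highest there. Their 95% intervals of OPM2 minus OCI-MY5 ran between −0.89 and 0.94, and differences within these bounds could not be resolved with 2 arrays a line.

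SOCS3, the inhibitor that STAT3 induces, was near background. Its brightest probe set, 206360_s_at, had 174 and 135 in OPM2, 125 and 82.0 in ARP1 and 162 and 79.2 for OCI-MY5, and the lines overlapped (moderated F, adjusted p = 0.548). Its other 3 probe sets were at 3.12 to 84.8, within the TrpnX range on every array. The interval of OPM2 minus OCI-MY5 ran from −0.61 to 1.36.

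PIM1, a serine/threonine kinase and known STAT3 target, was lowest in OPM2, the line with the highest IL6R. Its probe set 209193_at had 132 and 165 in OPM2, 932 and 803 in ARP1 and 660 and 459 for OCI-MY5, CD24+ first. The 3 lines did not overlap. PIM1 was 5.37-fold lower in OPM2 than in ARP1 (log2 difference −2.43, 95% interval −3.12 to −1.73; limma, adjusted p = 0.00755) and 3.45-fold lower than in OCI-MY5 (−1.79, −2.48 to −1.10; adjusted p = 0.0165). ARP1 and OCI-MY5 differed by 0.64 (−0.05 to 1.33; adjusted p = 0.301). Both calls held without either OPM2 array. Without the CD24+ or the CD24− array of ARP1 the first had an adjusted p of 0.0771 and 0.0672, and the second of 0.0565 and 0.0569. The second was also lost without either OCI-MY5 array (adjusted p = 0.0998 and 0.0645) and with no filter.

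PIM2, its relative with high levels in plasma cells, ran the other way. Its probe set 204269_at had 7258 and 12976 in OPM2, 3420 and 3855 in ARP1 and 7123 and 4968 for OCI-MY5. Both OPM2 arrays were highest and both ARP1 arrays lowest, and OPM2 minus ARP1 was 1.41 (95% interval 0.49 to 2.33), which missed the threshold after adjustment (adjusted p = 0.0586). It passed in 6 of 17 alternatives (adjusted p down to 0.00836), among them the fit without the CD24+ array of OPM2 (1.83, adjusted p = 0.0277).

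**Figure D2:**
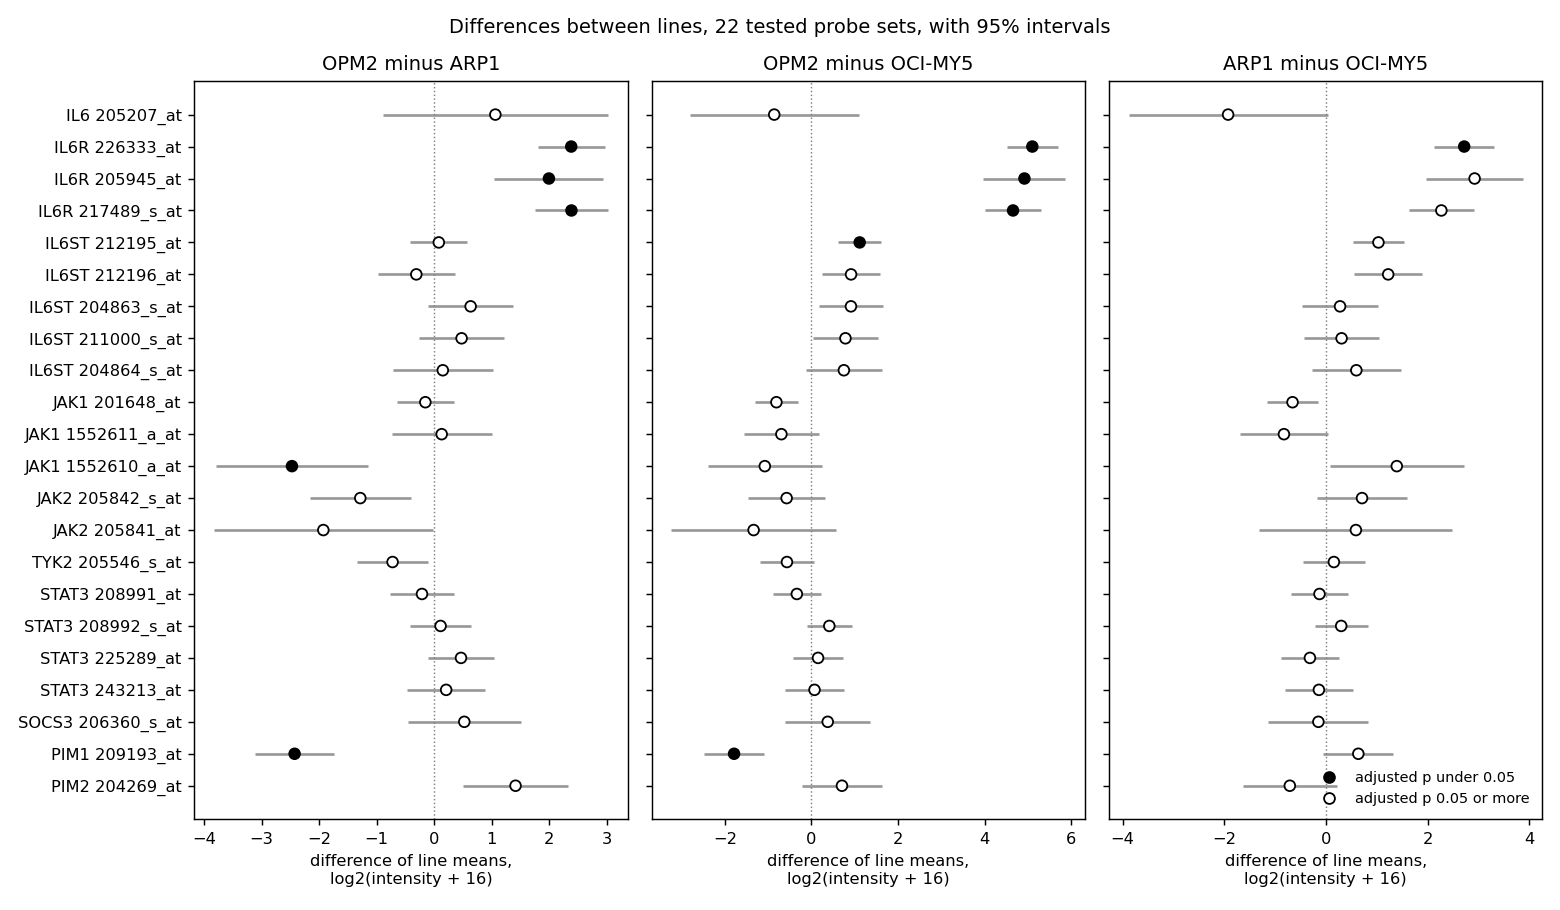
Differences of line means on the log2(intensity + 16) scale (horizontal axis) for the 22 tested probe sets (vertical axis), with 95% intervals from limma as bars and black points where the adjusted p was below 0.05. IL6R lies right of 0 in all 3 panels, between 1.99 and 5.10, and PIM1 lies at −2.43 and −1.79 in the panels with OPM2; the scales of the panels differ.

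Over the lines as a whole, 5 of the 22 tested probe sets passed the moderated F test (22.7%), against 16% of all tested probe sets. They stand for 3 genes, IL6R with 3 probe sets of 1 transcript, IL6ST and PIM1, so the excess rests on IL6R, 1 of whose probe sets passed the filter through OPM2. Between OPM2 and ARP1 the share was also 22.7%, 3 higher and 2 lower in OPM2, against 15.5% of all (6.18% higher and 9.37% lower). Between OPM2 and OCI-MY5 4 were higher and 1 lower, against 15.3% of all (6.78% higher and 8.52% lower). Between ARP1 and OCI-MY5 1 was higher, 4.55%, against 0.348% of all (0.260% higher and 0.0880% lower). The arrays of all 3 lines were apart from one another for 12 of the 22, and for 29.3% of all. The median range of line means was 1.01 for the 22 and 0.87 for all tested probe sets.

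Between the CD24 fractions no member passed. In the unpaired limma fit none was called and none had an unadjusted p below 0.05, against 0.00% and 1.32% of all tested probe sets. With the line as a block, which pairs the arrays, none was called either. In that fit 2 of the 22 had an unadjusted p below 0.05, against 1367 of all 27281 tested probe sets. These 2 were JAK1 on 1552610_a_at and SOCS3 on 206360_s_at (limma, adjusted p = 0.825 each). The median difference was −0.12 for the 22 and 0.03 for all tested probe sets. In the share of the sum of squares, cell line took 79.5% for the median member probe set and 71.2% for the median of all, and the fraction 3.09% and 6.22%. For IL6R on 226333_at line took 99.7% and fraction 0.111%.

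IL6R on 226333_at had a fraction difference of −0.14, with a 95% interval from −0.67 to 0.39 when the arrays were paired by line and from −4.02 to 3.75 when they were not. The differences within lines, CD24+ minus CD24−, were 0.12 in OPM2, −0.33 in ARP1 and −0.21 for OCI-MY5, each from 1 array per fraction and without a replicate check. Those of IL6ST on 212195_at were −0.04, 0.09 and 0.02, and those of JAK1 on 201648_at −0.05, 0.04 and −0.01. PIM1 differed by −0.29, 0.21 and 0.51, and PIM2 by −0.84, −0.17 and 0.52.

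The same direction in all 3 lines was seen for 3 of the 22 probe sets, 1 each of SOCS3, TYK2 and JAK1, while 29.2% of all tested probe sets had one. SOCS3 on 206360_s_at was at 174, 125 and 162 in the CD24+ cells of OPM2, ARP1 and OCI-MY5 and at 135, 82.0 and 79.2 in their CD24− cells. The fractions overlap, and the mean difference of 0.59 ± 0.29 (log2, SD over 3 lines) did not pass (limma, unadjusted p = 0.119, and 0.0445 with the line as a block, adjusted p = 0.825). Of the 3 dimmer SOCS3 probe sets, 206359_at had a mean difference of 0.75 and 214105_at one of −1.28, also in 1 direction in each line, but opposite ones and within the TrpnX range. TYK2 differed by 0.36 in OPM2, 0.10 in ARP1 and 0.30 for OCI-MY5 (limma, unadjusted p = 0.51, and 0.24 with the line as a block).

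JAK1 on 1552610_a_at was lower in CD24+ cells by a similar amount in each line, with differences of −0.99 in OPM2, −0.83 in ARP1 and −0.88 for OCI-MY5 (mean −0.90 ± 0.08, SD over 3 lines). The fractions overlap, and neither fit called it (limma, unadjusted p = 0.311, and 0.00582 with the line as a block, adjusted p = 0.825). The brighter JAK1 probe sets do not show this difference: 201648_at had a mean of −0.01 ± 0.05, and 1552611_a_at had −0.32 ± 0.52 with ARP1 in the opposite direction. IL6 differed by −0.40 in OPM2, 2.15 in ARP1 and 1.08 within OCI-MY5; both ARP1 values and the CD24+ value of OPM2 lie within the TrpnX range.

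**Figure D3:**
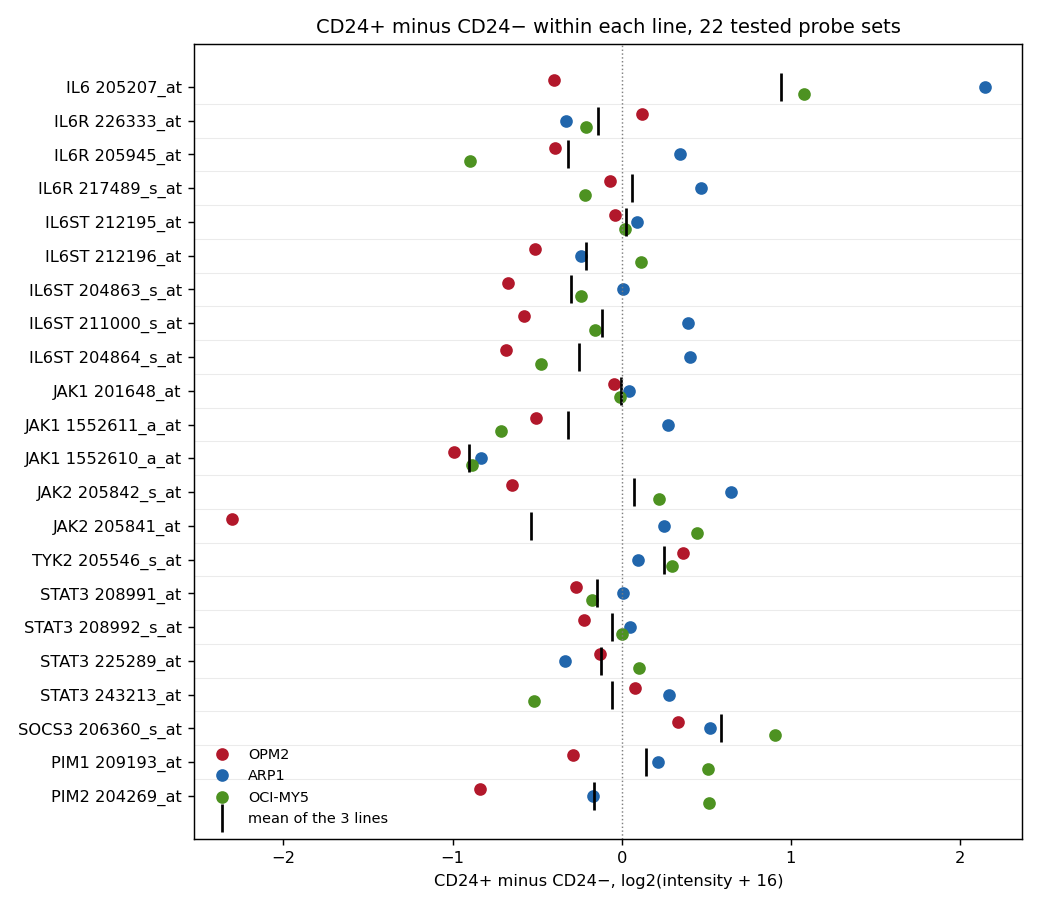
Difference between CD24+ and CD24− cells on the log2(intensity + 16) scale (horizontal axis) for the 22 tested probe sets (vertical axis), with 1 point per line and a bar at the mean of the 3 lines. Most sets of points straddle 0; JAK1 on 1552610_a_at sits at −0.99, −0.83 and −0.88, and the widest spreads belong to IL6 and to JAK2 on 205841_at.

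The wider path was described from 7 lists with 99 other genes; 88 had a probe set and 76 could be tested, each on its brightest one. Between the lines 31 of the 76 passed (moderated F), 40.8% against 28.5% of all 12067 genes tested, and their highest line was OPM2 for 10, ARP1 for 14 and OCI-MY5 for 7. Over all called genes these shares were 36.9%, 33.9% and 29.2%. OPM2 was the lowest line for 15 of the 31. The share lowest in OPM2 over all called genes was not taken, so this count cannot be called particular to the path. On another measure, by probe set and pair of lines, 9.37% of all tested probe sets were called lower in OPM2 than in ARP1 and 6.18% higher. Against OCI-MY5, 8.52% were lower in OPM2 and 6.78% higher. Of the 22 genes named below, 8 were called in every alternative in which they were tested: JAK3, STAT5A, PTPRC, PTPN6, CEBPD, TWIST1, CDKN1A and MAP3K5. In 10 of the 22 at least 1 line had both arrays within the TrpnX range, so that a gene could pass the filter through the lines where it was high. Of the 8, all but PTPN6 and MAP3K5 were among these 10, and TWIST1 was tested in only 13 alternatives. For those among the 10 the calls in every alternative are a description. Between the fractions, in the unpaired fit, none passed and none had an unadjusted p below 0.05, against 0.00% and 1.22% of all genes (limma). That fit leaves the spread between lines in its error and so has little power. Unadjusted p-values with the line as a block were not taken for these genes. Values below are given for CD24+ and then CD24− cells.

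Among the other ligands and receptors of the gp130 family 1 of 4 tested genes passed, against 28.5% of all genes. This was LIFR, the chain that pairs with gp130 for leukaemia inhibitory factor. It had 676 and 893 in OPM2, 122 and 65.2 in ARP1 and 3.72 and 78.6 for OCI-MY5 (adjusted p = 0.0309), and passed the filter through OPM2, so that its order is a description. It was called in 10 of 16 alternatives and lost, among others, with a pseudocount of 1, with no filter and without either OPM2 array (adjusted p up to 0.0880).

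Of 11 tested receptors that use JAK kinases in B lineage cells 5 passed, against 28.5% of all genes. IL21R, the interleukin-21 receptor, was highest in OCI-MY5 at 889 and 628, against 194 and 109 in OPM2 and 145 and 98.7 in ARP1 (adjusted p = 0.0136). IL15RA was also highest there, at 1031 and 902 against 355 and 363 in OPM2, while IFNGR2, a chain of the interferon-γ receptor, was lowest there at 306 and 326 against 1072 and 841 in ARP1. IL13RA1 was highest in ARP1 at 620 and 390 and lowest in OPM2 at 176 and 139.

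Of the other JAK and STAT genes 3 of 5 passed, against 28.5% of all genes, and OPM2 had the lowest mean in each of the 3. JAK3, the kinase of receptors that use the common γ chain, had 3.94 and 30.05 in OPM2, within the TrpnX range, against 354 and 278 in ARP1 and 507 and 385 in OCI-MY5 (adjusted p = 0.00748). STAT5A had 25.3 and 31.8, also within that range, against 311 and 259 in ARP1 and 190 and 202 in OCI-MY5 (adjusted p = 0.00251). STAT4 was highest in OCI-MY5 at 449 and 379, and OPM2 and ARP1 overlapped between 135 and 196.

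Of 15 tested inhibitors 5 passed, against 28.5% of all genes. PTPRC, the phosphatase CD45, which can act on JAK kinases, had the largest range: 62.4 and 56.2 in OPM2, both within the TrpnX range, 1148 and 1765 in ARP1 and 3838 and 3250 for OCI-MY5 (adjusted p = 0.000960). The order of the 3 lines is the reverse of that of IL6R, as a description over 3 lines. It is not particular to PTPRC, since JAK3, IL15RA and CEBPD, among others, had the same order of line means. PTPN6, the phosphatase SHP-1, was at 1556 and 1431 in OPM2, against 4446 and 4135 in ARP1 and 3626 and 4215 in OCI-MY5. SOCS4 was lowest in OPM2 too, at 724 and 690 against 1430 to 1773 in the other lines, and SOCS7 was lowest in OCI-MY5 at 635 and 532.

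Of 14 tested adaptors and kinases of the RAS and PI3K branches 3 passed, against 28.5% of all genes. AKT1, a kinase of the PI3K branch, was highest in OPM2 at 1142 and 1471, against 502 to 709 in the other lines. The docking protein GAB2 had 16.8 and 77.2 in OPM2, within the TrpnX range, against 202 to 275 in the others, and SOS2, a RAS activator, had 609 and 670 there against 1154 to 1381.

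Genes known as STAT3 targets passed in 11 of 17 cases, against 28.5% of all genes, highest in OPM2 for 5, in ARP1 for 4 and in OCI-MY5 for 2. FOS, an AP-1 subunit, had 8407 and 9394 in ARP1, against 11.9 and 202 in OPM2 and 17.7 and 14.5 in OCI-MY5 (adjusted p = 0.00847). FOS passed the filter through ARP1, so its order is a description. CEBPD, a transcription factor, was lowest in OPM2 at 5.14 and 18.1, against 308 and 384 in ARP1 and 663 and 735 in OCI-MY5, as PIM1 was. TWIST1, another transcription factor, was high in OPM2 alone of the 3 lines, at 760 and 553 against 3.04 to 65.8, which is within the TrpnX range, and passed the filter through OPM2. The mucin MUC1 was lowest there, at 24.4 and 44.4 against 104 to 372. The members of this list thus did not share an order of the lines.

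The PIM family and its substrates passed in 3 of 10 cases, against 28.5% of all genes. PIM3, the third PIM kinase, was highest in ARP1 at 4129 and 3941, against 1397 and 2069 in OPM2 and 1843 and 1561 in OCI-MY5 (adjusted p = 0.0286). OPM2 and OCI-MY5 overlapped for PIM3, and ARP1 was the line with the highest mean for PIM1 and PIM3 but not for PIM2. CDKN1A, the p21 inhibitor of cyclin-dependent kinases, was lowest in OCI-MY5 at 26.8 and 44.9, against 492 and 448 in OPM2 and 285 and 261 in ARP1. MAP3K5, a stress kinase, was lowest in OPM2 at 1161 and 1070, against 3472 to 4183 in the others.

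**Figure D4:**
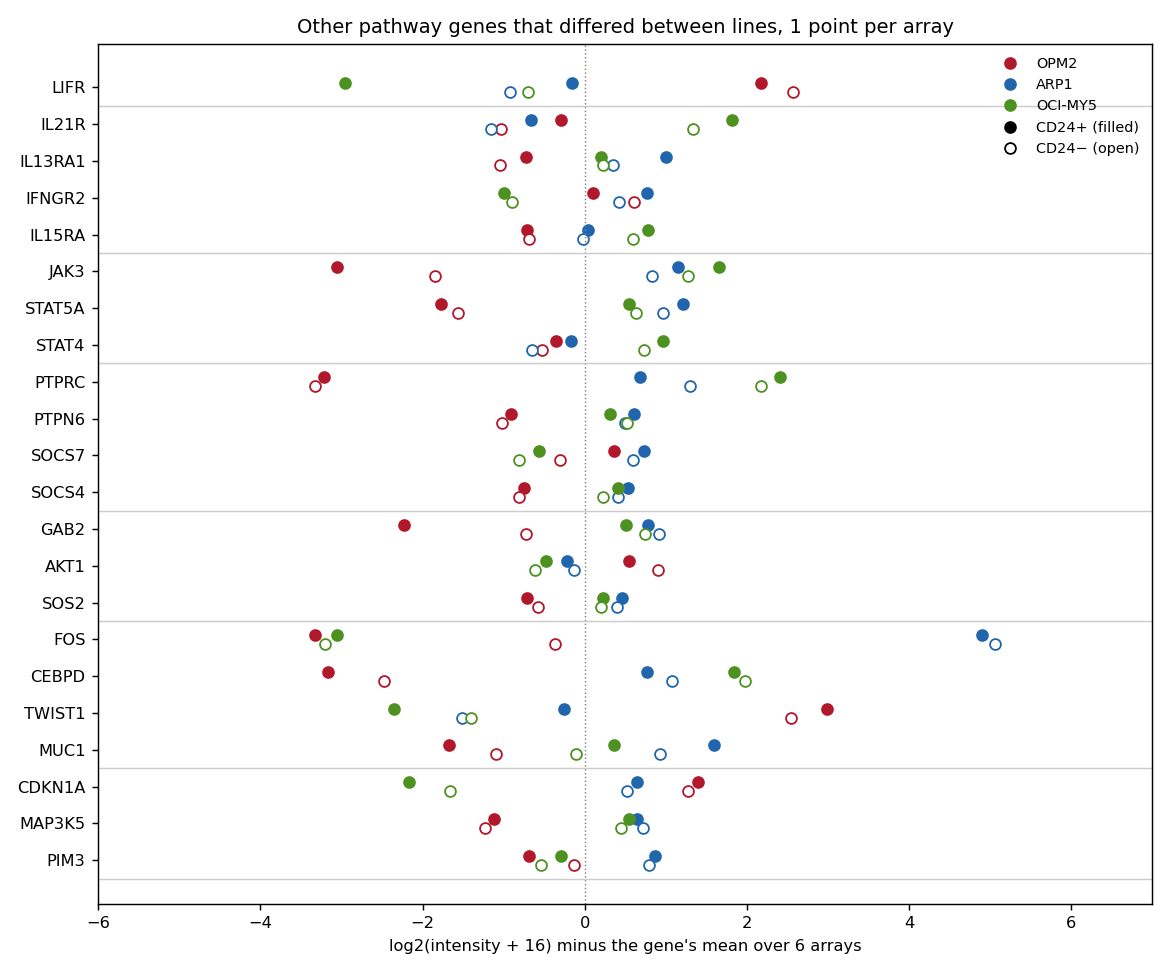
Level of the 22 other path genes named here on each array, as log2(intensity + 16) minus the gene's mean over 6 arrays (horizontal axis), with 1 row per gene and lines between the lists. Colours mark the line and fill marks the fraction. JAK3, STAT5A, PTPRC, CEBPD and MAP3K5 are lowest in OPM2, and LIFR and TWIST1 highest there.

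Genes with the profile most like a member were found by Pearson's r over the 6 arrays, among 12066 genes; the points are 3 lines with 2 arrays each, so high values are common. Nearest to IL6R on 226333_at were GATM, TIMP2 and FNDC3A (r = 0.998 each), and 286 genes exceeded 0.95. Nearest to PIM1 were ASNS, ACADVL and DNPH1 (0.999, 0.997 and 0.996), with 496 genes above 0.95. Nearest to JAK1 on 1552610_a_at were GPATCH11, CTDSP2 and CPNE8 (0.991, 0.989 and 0.987), with 80 above.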

How the data were processed

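RNA of sorted CD24+ and CD24− cells of 3 lines was measured on 6 arrays. The authors computed linear MAS5 intensity values with Affymetrix Expression Console 1.1, as the design text and the submitters' processing notes state; each array's trimmed mean is about 500, and no further step between arrays is seen. Gene names came from the platform annotation, brought to current symbols by Entrez ID (GRCh38.p14 RefSeq table, 41037 probe sets matched); 41091 probe sets had 1 gene symbol, 1801 several and 11721 none. The 62 control probe sets were left out. Promoters are from RefSeq.

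Values were taken as log2(intensity + 16), filtered at a mean of 6.36, and fitted by lmFit and eBayes (R 4.3.3, limma 3.58.1; two-sided tests, Benjamini-Hochberg at 0.05): CD24+ against CD24− without a block, and the 3 lines with their 2 arrays each (moderated F and pairwise contrasts). Arrays numbered alike come from the same line, so the numbers pair the samples by line. Their deviations from the fraction means correlated at 0.633 to 0.704. Number and line are the same label here, so this correlation cannot show a shared culture or sort. The replicate block was an alternative fit. Scripts were tested on simulated data. The number of arrays limits the precision.

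Members, lists, tests and alternatives were chosen with earlier results of these data known. Named list genes are those that passed between the lines, up to 4 per list with the largest range of line means; likeness names 3 genes per member. Alternatives were pseudocounts of 1 and 64, quantile normalization, median centring, other filters (none, 75th percentile), 1 probe set or the mean per gene, an intensity trend, no x_at probe sets, the block, the fraction as a term, 1 fraction alone, and leaving out arrays or lines.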

Additional observations from a re-analysis of the deposited data

Results flagged for a closer look

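Some probe sets below the brightness filter rose above the highest TrpnX value of 96.4 on the CD24+ array of OPM2, the array with the high median and spike-ins. JAK1 239695_at reached 204 there, JAK1 240613_at 221 and JAK2 1562031_at 126. The same probe sets were at 100, 13.2 and 55.5 in the CD24− cells of OPM2.

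JAK2 on 205842_s_at went in opposite directions in the fractions of 2 lines by more than 1.5-fold, at −0.65 in OPM2 and 0.64 in ARP1 (CD24+ minus CD24−, log2). Each rests on 1 array per fraction, and the difference between the lines was not tested.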

How the results depend on the processing

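The number of member genes called between the lines was 3, or 1 with no filter on dim probe sets, and 5 each with the filter at the 75th percentile and with an intensity trend; leaving out 1 array gave 1 to 5. The other path genes called between the lines were 31, or 19 with centring, 14 with no filter, and 10 to 38 without 1 array. Member probe sets with the same direction in each line were 3, or 7 with centring, 6 with no filter, 1 with the stricter filter, and 8 to 12 without a line, where only 2 must match. Centring moved the median difference of all tested probe sets to −0.30 for CD24+ minus CD24− and to −0.26 and −0.33 for OPM2 minus ARP1 and OPM2 minus OCI-MY5, and the share of higher among calls in OPM2 minus ARP1 to 25.4%, against 39.8%. The cause of these moves was not tested.

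With the line as a replicate block no member passed between the fractions and no call changed, with 0 calls and 1367 probe sets at an unadjusted p below 0.05, against 359 without it (2 members, against 0); the lowest adjusted p was 0.825.

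No called line difference turned its direction. Uncalled values did. CD24+ minus CD24− turned with quantile normalization for JAK1 (0.048), JAK2 (−0.21) and PIM1 (−0.14), with centring for IL6ST (−0.31), JAK2 (−0.26), TYK2 (−0.080) and PIM1 (−0.19), and with the mean of all probe sets for IL6ST (−0.10), JAK1 (0.065) and JAK2 (−0.085). OPM2 minus ARP1 turned for IL6ST with centring (−0.19) and the mean of all probe sets (−0.13), and with that mean for STAT3 (0.14, and 0.074 for OPM2 minus OCI-MY5). SOCS3 in OPM2 minus OCI-MY5 was −0.019 with centring, and JAK1 in ARP1 minus OCI-MY5 0.052 with the mean. Without 1 array, where unequal sets of lines are compared, CD24+ minus CD24− ran from −1.45 to 1.18 for IL6R, −0.33 to 0.38 for IL6ST, −0.25 to 0.24 for JAK1, −0.40 to 0.56 for JAK2, −0.45 to 0.95 for PIM1 and −0.52 to 0.36 for PIM2. OPM2 minus ARP1 ran from −0.0094 to 2.14 for IL6, and SOCS3 from −0.076 to 0.83 in OPM2 minus OCI-MY5 and from −0.60 to 0.30 in ARP1 minus OCI-MY5.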
